A study of Rattus norvegicus with 21 samples.

Results

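Hif1a, Vegfa, Slc2a1 and Kdr, a short chain of genes from the sensing of low oxygen to the growth of blood vessels, were followed in the bladder of rats after spinal cord injury (SCI). The set is defined by gene names and holds 4 of the 32754 genes in the count table. All 4 were among the 15225 genes with enough reads to test. Their symbols belong to the Ensembl identifiers ENSRNOG00000008292, ENSRNOG00000019598, ENSRNOG00000007284 and ENSRNOG00000046829, in that order, as given in the definition of the set, and were not checked against a gene map here.

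RNA was sequenced from the full-thickness urinary bladder, that is the muscle and the lining together, of male Sprague Dawley rats with the genotype WT, 6 to 7 weeks old at surgery. The SCI rats had undergone complete transection of the thoracic cord and were taken at 2, 8 or 16 weeks, and the control rats, which the labels call uninjured rather than sham-operated, were taken at 0, 2, 8 or 16 weeks. That gives 7 groups of 3 animals, 21 libraries in all, placed by the labels in a single batch and holding 8087726 to 15472537 counts each (median 9584812). The 0-week controls are listed in the labels, while the series' description of its design names only the later weeks. The strain is outbred, and no transgene or drug is given for any of these groups.

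Cells short of oxygen stop degrading the protein of Hif1a, the oxygen-regulated subunit of hypoxia-inducible factor 1. The factor then binds DNA and raises genes that bring in more glucose and more blood, among them Slc2a1, which encodes the glucose transporter GLUT1, and Vegfa, which encodes a growth factor for vessels. Vegfa protein acts on endothelial cells, the lining of vessels, through the receptor encoded by Kdr, known as VEGFR2. Because Hif1a is controlled largely at the protein level, its mRNA need not follow the activity of the factor. In the obstructed or neurogenic bladder, raised wall pressure can reduce blood flow, which is why these genes are of interest in this tissue.

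By the quasi-likelihood test of edgeR, none of the 4 genes passed for a difference between SCI and control bladders at any week. The nearest was Kdr at 16 weeks, whose fitted level in SCI bladders differed from control by -25.0%, with all 3 SCI libraries below all 3 controls and an adjusted p of 0.0666 by edgeR. DESeq2 called this 1 gene, with an adjusted p of 0.0402, and called 11% of all tested genes at that week. Full separation at 16 weeks held for 35.9% of all tested genes, with Hif1a and Slc2a1, both higher in SCI, among them. Across animals within groups, the levels of Vegfa and Slc2a1 were positively correlated and those of Slc2a1 and Kdr negatively. One library stood apart. Control replicate 2 at 8 weeks had the highest level of Hif1a, Vegfa and Slc2a1 among the 21 libraries, and its Slc2a1 level was 0.88 log2 units above the mean of the other controls of that week.

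The stretches of DNA before the start of 3 of the genes are shown because the factor's core motif is a 5-letter word that can be looked for in them. They come from the RefSeq promoter table on assembly GRCr8, which is not the Rnor_6.0 build of the counts, and are read 5′ to 3′ on the plus strand. They end at the last base before the gene. Capitals mark the letters ACGTG or GCGTG on either strand, so that CACGC is GCGTG read on the other strand. The Slc2a1 stretch spans chr5:138002272-138002521, that of Vegfa, before the first of the starts listed for it, chr9:22452604-22452853 and that of Kdr chr14:32571813-32572030.
Slc2a1: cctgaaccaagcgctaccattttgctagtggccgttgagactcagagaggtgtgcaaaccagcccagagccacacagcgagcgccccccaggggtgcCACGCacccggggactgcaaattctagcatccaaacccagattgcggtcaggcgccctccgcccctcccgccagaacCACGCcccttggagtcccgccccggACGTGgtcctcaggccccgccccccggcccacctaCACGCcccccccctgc
Vegfa: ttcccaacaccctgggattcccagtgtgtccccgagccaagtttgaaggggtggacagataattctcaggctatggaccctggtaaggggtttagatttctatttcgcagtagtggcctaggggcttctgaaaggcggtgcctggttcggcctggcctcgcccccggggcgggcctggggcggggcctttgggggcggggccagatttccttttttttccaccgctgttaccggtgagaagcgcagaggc
Kdr: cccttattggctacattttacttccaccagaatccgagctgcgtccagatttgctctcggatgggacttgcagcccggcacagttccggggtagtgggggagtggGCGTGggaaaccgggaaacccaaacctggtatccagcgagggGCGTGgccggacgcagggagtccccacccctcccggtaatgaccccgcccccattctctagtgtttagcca
Slc2a1 had 4 matches in its 250 bases, 1 to ACGTG at 51 bases before the start and 3 to GCGTG at 153, 76 and 16 bases before it. Vegfa had 0 matches in its 250 bases. Kdr had 2 matches to GCGTG in 218 bases, at 113 and 71 bases before the start. The corresponding stretch of Hif1a, chr6:98359648-98359897, had 3 matches to ACGTG, of which 2 are the same letters CACGTG read on both strands. Across 33469 windows of 250 bases before gene starts, 16.6% held ACGTG, 25.9% held GCGTG and 36.7% held at least 1 of them, so a match is common. A match describes the letters only, and its absence says only that these letters are not in the window.

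All 4 genes were well measured. Vegfa had 1622 to 2928 counts per library and Hif1a 1454 to 2639, which placed their average levels above 95.3% and 93.9% of the tested genes. Slc2a1 had 328 to 668 counts and Kdr 476 to 1219. At the median count, counting error alone is 2.22% for Vegfa, 2.37% for Hif1a, 4.20% for Kdr and 4.74% for Slc2a1. The biological coefficient of variation, the spread between animals of a group after counting error, was 8.13% for Hif1a, 10.3% for Vegfa, 11.7% for Kdr and 16.3% for Slc2a1, against 16.0% common to all genes. Hif1a was also among the steadier genes by the within-group SD of log2 CPM, which was lower in only 7.22% of the tested genes. That SD still includes counting error, which is small for a gene with many reads. Levels below are CPM, read counts as a share of the library total, after scaling with TMM factors (trimmed mean of M values). They are not divided by gene length and are compared between samples, not between genes.

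**Figure D1:**
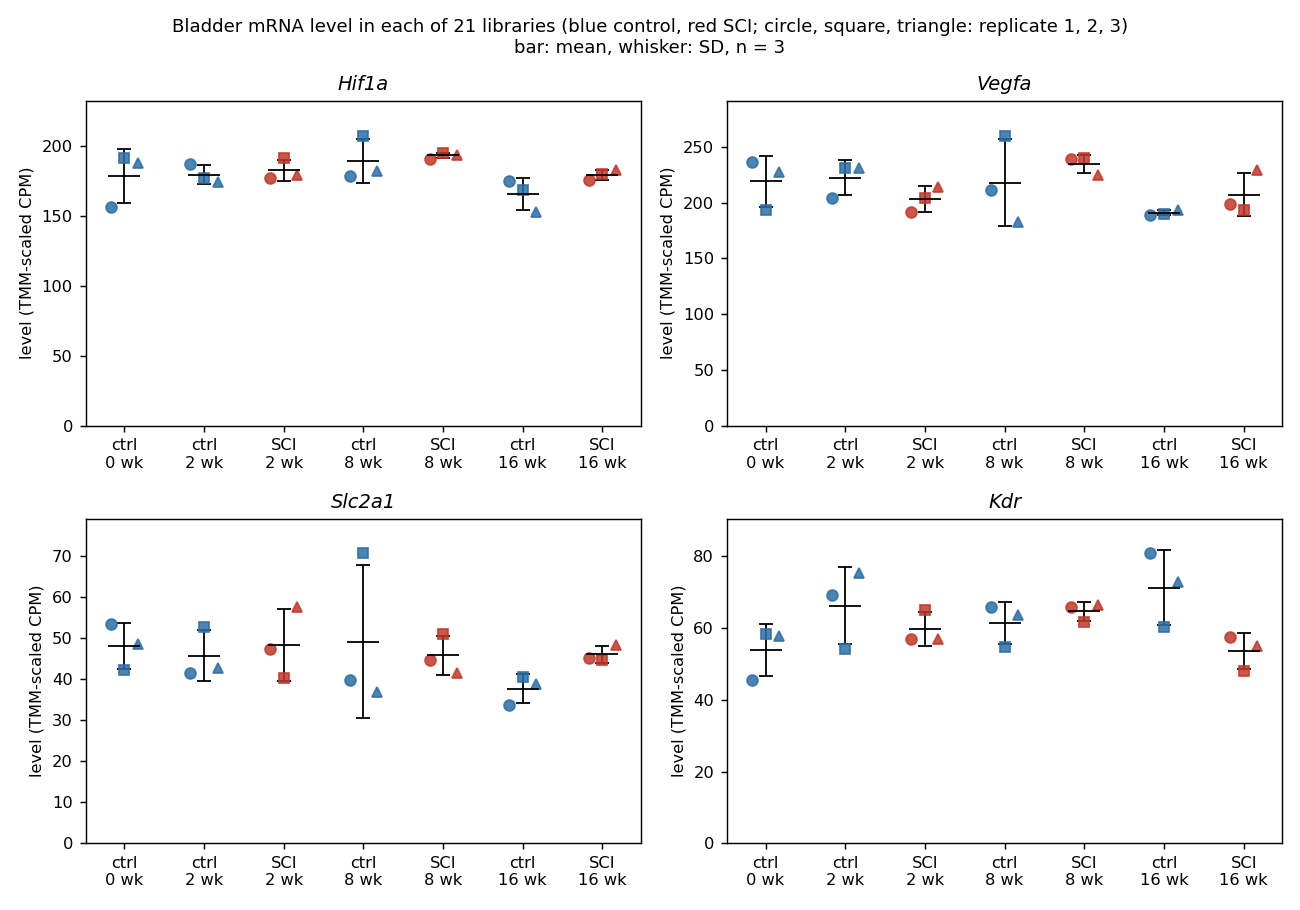
Level of each gene in TMM-scaled CPM (vertical axes, from 0) in the 21 libraries by group (horizontal axes), with points for animals, bars for the mean and whiskers for the SD of 3. At 16 weeks the SCI and control libraries do not overlap for Hif1a, Slc2a1 and Kdr, as for 35.9% of all tested genes, and control replicate 2 at 8 weeks stands highest for Hif1a, Vegfa and Slc2a1.

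Hif1a, the oxygen sensor's effector, varied little over the whole design. In controls it was 157, 191 and 188 CPM at 0 weeks, 187, 177 and 174 at 2 weeks, 179, 207 and 182 at 8 weeks, and 175, 169 and 153 at 16 weeks. In SCI bladders it was 177, 191 and 179 CPM at 2 weeks, 191, 195 and 194 at 8 weeks, and 176, 180 and 182 at 16 weeks. The groups overlapped at 2 and 8 weeks, and at 16 weeks all 3 SCI libraries lay above all 3 controls. The order of the means ran from controls at 16 weeks (165 CPM ± 11.5, SD, n = 3) through controls at 0 weeks (178 ± 19.0), SCI at 16 weeks (179 ± 3.33), controls at 2 weeks (179 ± 7.02), SCI at 2 weeks (182 ± 7.76) and controls at 8 weeks (189 ± 15.7) to SCI at 8 weeks (193 ± 1.99). The highest mean was 1.17 times the lowest, and all neighbours in this order overlapped.

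The SCI effect on Hif1a, as a log2 fold change, was 0.02 (SE 0.08) at 2 weeks, 0.03 (SE 0.08) at 8 weeks and 0.12 (SE 0.08) at 16 weeks. The adjusted p from edgeR was 0.996, 0.855 and 0.381. At 16 weeks the 95% confidence interval of the difference ran from -3.94% to 22.2%. The 2-week and 8-week values are close to 0 and their sign turned when single libraries were left out. Without control replicate 2 at 8 weeks, the library that stood apart, the 8-week value was 0.10, and without control replicate 3 at 16 weeks, the lowest library, the 16-week value was 0.055.

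Vegfa, the vessel growth factor, was 237, 193 and 228 CPM in controls at 0 weeks, 204, 231 and 231 at 2 weeks, 212, 260 and 182 at 8 weeks, and 189, 190 and 193 at 16 weeks. In SCI bladders it was 192, 204 and 215 CPM at 2 weeks, 239, 240 and 225 at 8 weeks, and 199, 193 and 230 at 16 weeks. SCI and control overlapped at every week. At 8 weeks the controls alone spanned both the highest and the lowest library of the whole design, while the 3 SCI libraries lay close together.

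The order of the Vegfa means ran from controls at 16 weeks (191 CPM ± 2.20, SD, n = 3) through SCI at 2 weeks (203 ± 11.4), SCI at 16 weeks (207 ± 19.6), controls at 8 weeks (218 ± 39.4), controls at 0 weeks (219 ± 23) and controls at 2 weeks (222 ± 15.7) to SCI at 8 weeks (235 ± 8.26). The highest mean was 1.23 times the lowest, and neighbours in the order overlapped throughout. The log2 fold change of SCI over control was -0.13 (SE 0.11), 0.11 (SE 0.11) and 0.12 (SE 0.11) at 2, 8 and 16 weeks, with edgeR adjusted p of 0.927, 0.565 and 0.511. The 95% interval of the difference was -22.1% to 7.53% at 2 weeks. It was -8.32% to 26.5% at 8 weeks, and at 16 weeks its limits were -7.56% and 27.6%. Without control replicate 3 at 8 weeks, the lowest library, the 8-week value was -0.0062, and without control replicate 2, the library that stood apart, it was 0.26. The 16-week value was 0.037 without SCI replicate 3.

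Slc2a1, the glucose transporter gene, had its widest spread among the controls at 8 weeks, where replicate 2 stood apart. In controls it was 53.4, 42.3 and 48.5 CPM at 0 weeks, 41.6, 52.8 and 42.8 at 2 weeks, 39.8, 70.6 and 36.9 at 8 weeks, and 33.7, 40.6 and 38.7 at 16 weeks. In SCI bladders it was 47.2, 40.2 and 57.5 CPM at 2 weeks, 44.6, 51.1 and 41.6 at 8 weeks, and 45.2, 44.6 and 48.4 at 16 weeks. At 16 weeks every SCI library exceeded every control, whereas the groups overlapped at 2 and 8 weeks. The controls at 16 weeks had the lowest mean (37.7 CPM ± 3.54, SD, n = 3), and the other 6 group means lay between 45.7 and 49.1 CPM. The lowest group did not overlap its neighbour, controls at 2 weeks, and all other neighbours overlapped.

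The SCI effect on Slc2a1 was 0.08 (SE 0.19) on the log2 scale at 2 weeks, -0.10 (SE 0.19) at 8 weeks and 0.29 (SE 0.19) at 16 weeks. By edgeR the adjusted p was 0.992, 0.766 and 0.339. The 16-week value corresponds to 22.4% more Slc2a1 RNA in SCI bladders, with a 95% interval from -7.48% to 62.0%. The 8-week value rests on the control library that stood apart, since without it the log2 fold change was 0.26. At 2 weeks the sign rested on SCI replicate 3, without which the value was -0.066.

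Kdr, the endothelial receptor for Vegfa, was 45.4, 58.4 and 57.8 CPM in controls at 0 weeks, 69.1, 54.3 and 75.3 at 2 weeks, 65.9, 54.8 and 63.7 at 8 weeks, and 80.8, 60.2 and 72.8 at 16 weeks. In SCI bladders it was 57.0, 65.2 and 56.9 CPM at 2 weeks, 66.0, 61.6 and 66.5 at 8 weeks, and 57.6, 48.0 and 55.0 at 16 weeks. SCI libraries at 16 weeks were below each of the 3 controls, and the gap between the highest SCI and the lowest control library was narrow. Groups overlapped at 2 and 8 weeks.

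The Kdr means were ordered from SCI at 16 weeks (53.5 CPM ± 4.99, SD, n = 3) through controls at 0 weeks (53.9 ± 7.33), SCI at 2 weeks (59.7 ± 4.76), controls at 8 weeks (61.5 ± 5.88), SCI at 8 weeks (64.7 ± 2.71) and controls at 2 weeks (66.2 ± 10.8) to controls at 16 weeks (71.3 ± 10.4). The 2 groups of the 16-week comparison thus stood at the ends of the order, with a ratio of 1.33, though neighbours overlapped at each step. Kdr is best known from endothelial cells, and in whole tissue fewer endothelial cells and less Kdr RNA per cell cannot be told apart. Markers of endothelium and of the other cell types of the bladder wall were not measured here, because their identifiers could not be matched to symbols.

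For Kdr the log2 fold change of SCI over control was -0.15 (SE 0.13) at 2 weeks and 0.07 (SE 0.13) at 8 weeks, with edgeR adjusted p of 0.932 and 0.758. With 1 library left out, the 2-week value ran from -0.27 to -0.047, and the 8-week value was 0.13 without control replicate 1 and 3.0e-05 without control replicate 2, the library that stood apart. At 16 weeks it was -0.42 (SE 0.13), with an adjusted p of 0.0666 by edgeR. The 95% interval of that difference ran from -38.2% to -8.99%. A change of 0.46 on the log2 scale would have been needed for this gene to pass the threshold of 0.05 at that week. The call depends on the fit. DESeq2 gave -0.41 with an adjusted p of 0.0402, and a fit of edgeR without the 0-week controls gave -0.41 with an adjusted p of 0.0445.

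Single libraries also decided it. Without control replicate 2 at 16 weeks the edgeR value was -0.52 with an adjusted p of 0.0465, and without control replicate 1, the highest library, it was -0.32 with an adjusted p of 0.243. The library need not belong to the comparison, since without control replicate 1 at 0 weeks the adjusted p was 0.0416. Over 30 other settings of the fit, 5 passed the threshold and all 30 gave a negative value, from -0.52 to -0.31.

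**Figure D2:**
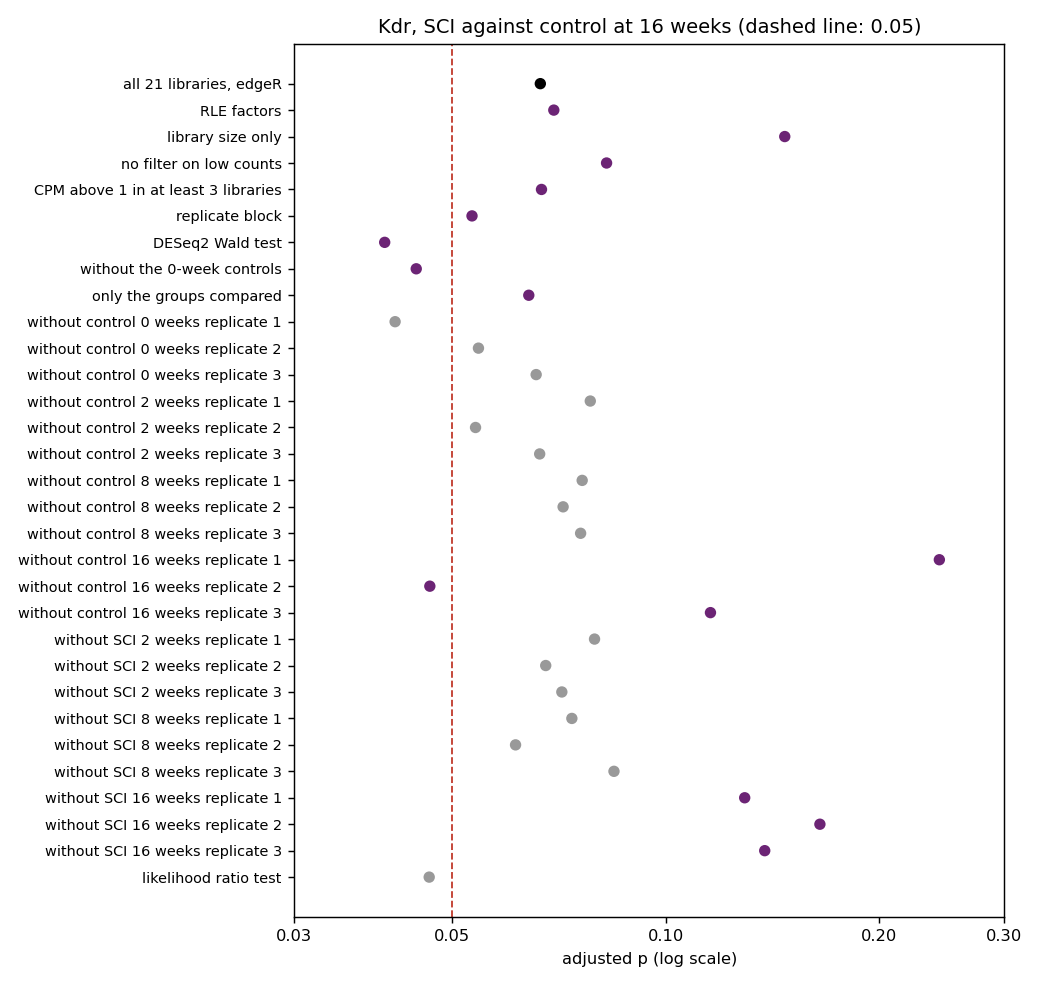
Adjusted p for Kdr, SCI against control at 16 weeks (horizontal log axis), in the reported fit (black), 14 other settings (purple) and 16 more chosen after seeing the data (grey), with a dashed line at 0.05. The values run from 0.0402 to 0.243 and 5 of the 30 settings lie left of the line.

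Set against all genes, the count of 0 of 4 called at 2 weeks stands beside 0% of the 15225 tested genes called by edgeR, and 0 of the 4 had an unadjusted p under 0.05, beside 6.67% of all genes. At 8 weeks 0 of 4 were called beside 8.41%, and 0 of 4 had an unadjusted p under 0.05 beside 28% of all genes. At 16 weeks 0 of 4 were called beside 5.62%, and 1 of 4, Kdr, had an unadjusted p under 0.05 beside 26.6% of all genes. DESeq2 called 0, 0 and 1 of the 4 at these weeks, beside 0.42%, 12.9% and 11% of all tested genes, more than edgeR at each week. The groups did not overlap for 3 of the 4 genes at 16 weeks, beside 35.9% of all tested genes, and for 0 of 4 at 2 and 8 weeks, beside 15.6% and 28.6%. At 16 weeks 28.9% of the tested genes had a larger absolute fold change than Kdr. The median log2 fold change of the 4 at 2, 8 and 16 weeks was -0.05, 0.05 and 0.12, beside 0.00, 0.00 and -0.02 for all tested genes. The 16-week bladder thus did not show these genes moving in one direction, since 3 values were above 0 and that of Kdr was below.

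**Figure D3:**
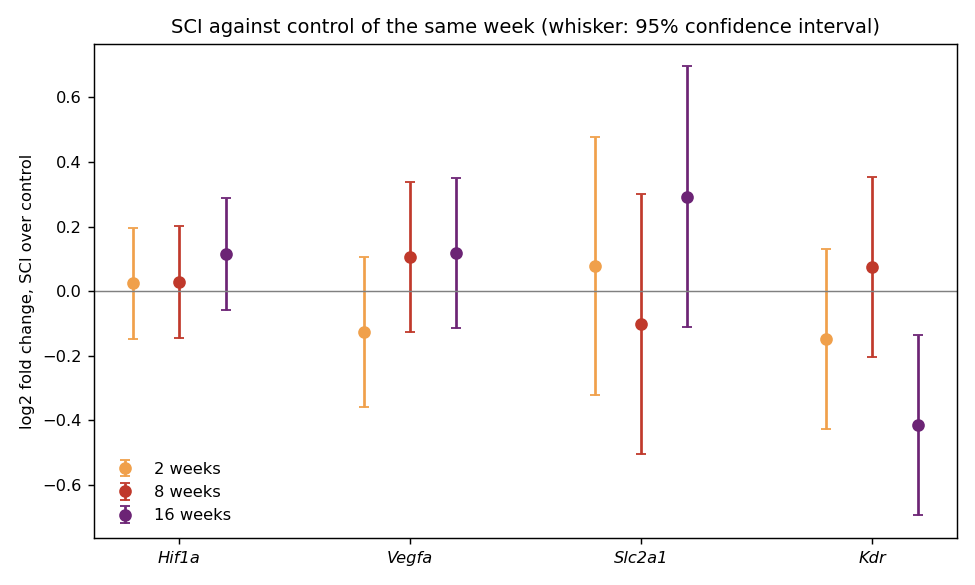
Log2 fold change of SCI over control of the same week (vertical axis) for each gene (horizontal axis) at 2, 8 and 16 weeks, with whiskers for the 95% confidence interval of the model. The interval of Kdr at 16 weeks lies below 0, and the other 11 intervals include 0.

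Whether the SCI effect itself differed between weeks was tested as an interaction. For Kdr the effect at 16 weeks minus that at 8 weeks was -0.49 on the log2 scale (SE 0.19), with an unadjusted p of 0.0180 and an adjusted p of 0.649 by edgeR. For Vegfa the effect at 16 minus 2 weeks was 0.25 (SE 0.16) with an edgeR adjusted p of 0.686, and for Slc2a1 the effect at 16 minus 8 weeks was 0.39 (SE 0.27) with an edgeR adjusted p of 0.851. Without control replicate 2 at 8 weeks the values of Kdr and Slc2a1 for 16 minus 8 weeks were -0.41 and 0.044. By edgeR 0 of 4 genes were called in each of the 3 interactions, beside 0.0197% of all tested genes for 8 minus 2 weeks, 0% for 16 minus 2 weeks and 0% for 16 minus 8 weeks. At an unadjusted p under 0.05 the counts were 0, 0 and 1 of 4, the last being Kdr, beside 8.59%, 7.75% and 6.63% of all genes. DESeq2 called 0 of the 4 in each, beside 28, 6 and 20 of all genes. The Kdr effect at 16 weeks is therefore not shown to differ from that at the earlier weeks.

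Time itself was examined within each arm. The controls were uninjured, so their weeks stand for age, while in SCI bladders age and time since injury run together. Between 8 and 16 weeks, the 4 genes gave the following values in controls, none of which passed the test. The log2 difference was -0.19 for Hif1a (SE 0.08, edgeR adjusted p = 0.471), -0.19 for Vegfa (SE 0.11, edgeR adjusted p = 0.621), -0.38 for Slc2a1 (SE 0.19, edgeR adjusted p = 0.548) and 0.22 for Kdr (SE 0.13, edgeR adjusted p = 0.656). Without control replicate 2 at 8 weeks these values were -0.13, -0.049, -0.031 and 0.14, so those of Vegfa and Slc2a1 rested largely on that library. Without control replicate 3 at 8 weeks the Vegfa value was -0.31, and without control replicate 1 at 16 weeks the Kdr value was 0.11. The controls at 16 weeks are the same libraries that serve as the baseline for SCI at that week, so these values and the 16-week SCI effects share samples. In SCI bladders over the same interval, the log2 difference was -0.11 for Hif1a (SE 0.08), -0.18 for Vegfa (SE 0.11), 0.01 for Slc2a1 (SE 0.19) and -0.27 for Kdr (SE 0.13), each with an edgeR adjusted p of 1.00.

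The earliest step, controls at 2 against 0 weeks, gave 0.30 for Kdr (SE 0.13, edgeR adjusted p = 0.346), while the values of the other 3 genes lay between -0.07 and 0.02. The Kdr value was 0.20 without control replicate 1 at 0 weeks, 0.20 without control replicate 3 at 2 weeks and 0.43 without control replicate 2 at 2 weeks. In the 7 comparisons over time, edgeR and DESeq2 called 0 of the 4 genes. The share of all tested genes called by edgeR was 0% in controls at 2 against 0 weeks, 0% at 8 against 2, 0.0788% at 16 against 8 and 0.407% at 16 against 2 weeks. In SCI bladders it was 0.0131% at 8 against 2, 0% at 16 against 8 and 0.046% at 16 against 2 weeks. DESeq2 called 45, 269, 105 and 899 of all genes in the control comparisons and 22, 1 and 25 in the SCI ones, in the same order. The corresponding shares at an unadjusted p under 0.05 were 13.4%, 18.9%, 9.5% and 23.7% in controls and 4.49%, 1.81% and 5.23% in SCI bladders, beside 1 of 4 (Kdr) in the first, 1 of 4 (Hif1a) in the third and 0 of 4 in the rest. Over all 13 comparisons and 52 tests, 4 had an unadjusted p under 0.05, namely Kdr in SCI against control at 16 weeks, in the interaction of 16 with 8 weeks and in controls at 2 against 0 weeks, and Hif1a in controls at 16 against 8 weeks. A single test of any difference among the 7 groups gave edgeR adjusted p of 0.145 for Kdr, 0.359 for Vegfa, 0.380 for Hif1a and 0.639 for Slc2a1, with 0 of 4 called beside 13.6% of all tested genes.

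The relations that passed a test were between animals of a group. After each group's mean was subtracted from log2 CPM, Vegfa and Slc2a1 varied together over the 21 libraries (Pearson r = 0.79, two-sided permutation p = 0.00171, adjusted over the 6 gene pairs 0.00513; Spearman rho = 0.72, permutation p = 0.00258, adjusted 0.00774). Permutations shuffled libraries within their group. Without the 2 libraries farthest from the median of Slc2a1, controls 2 and 3 at 8 weeks, r was 0.58. Without control replicate 2 at 8 weeks alone it was 0.60, with a permutation p of 0.0104 and an adjusted p of 0.0312.

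Slc2a1 and Kdr varied in opposite directions (r = -0.66, permutation p = 0.00100, adjusted 0.00513; rho = -0.72, permutation p = 0.00107, adjusted 0.00642). Here r was -0.72 without the 2 farthest libraries and -0.70 without control replicate 2 at 8 weeks, so this relation did not rest on the library that stood apart. With scaling by library size alone it was -0.52, with an adjusted permutation p of 0.0496. Control replicate 2 and SCI replicate 3 at 2 weeks, for example, were above their group means for Slc2a1 and below them for Kdr, whereas SCI replicate 3 at 16 weeks was above its group mean for both.

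The other 4 pairs did not pass. Vegfa and Kdr gave r = -0.32 (adjusted permutation p = 0.457). Hif1a gave r = 0.05 with Vegfa (adjusted permutation p = 0.902), 0.09 with Slc2a1 (adjusted permutation p = 0.902) and 0.22 with Kdr (adjusted permutation p = 0.734). Hif1a mRNA thus showed no detectable relation across these animals to the RNA of either oxygen-response gene. Without control replicate 2 at 8 weeks, r of Hif1a was -0.40 with Vegfa (adjusted permutation p = 0.317) and -0.50 with Slc2a1 (adjusted permutation p = 0.156). Without control replicate 3 at 8 weeks these were -0.077 and 0.0036, and without control replicate 1 at 0 weeks 0.34 and 0.32. The sign of neither was thus settled. Without control replicate 2 at 8 weeks r was -0.16 for Vegfa and Kdr and 0.45 for Hif1a and Kdr. Without control replicate 1 at 0 weeks the last was -0.12. The makeup of each piece of tissue was not measured, and its part in these relations was not tested.

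**Figure D4:**
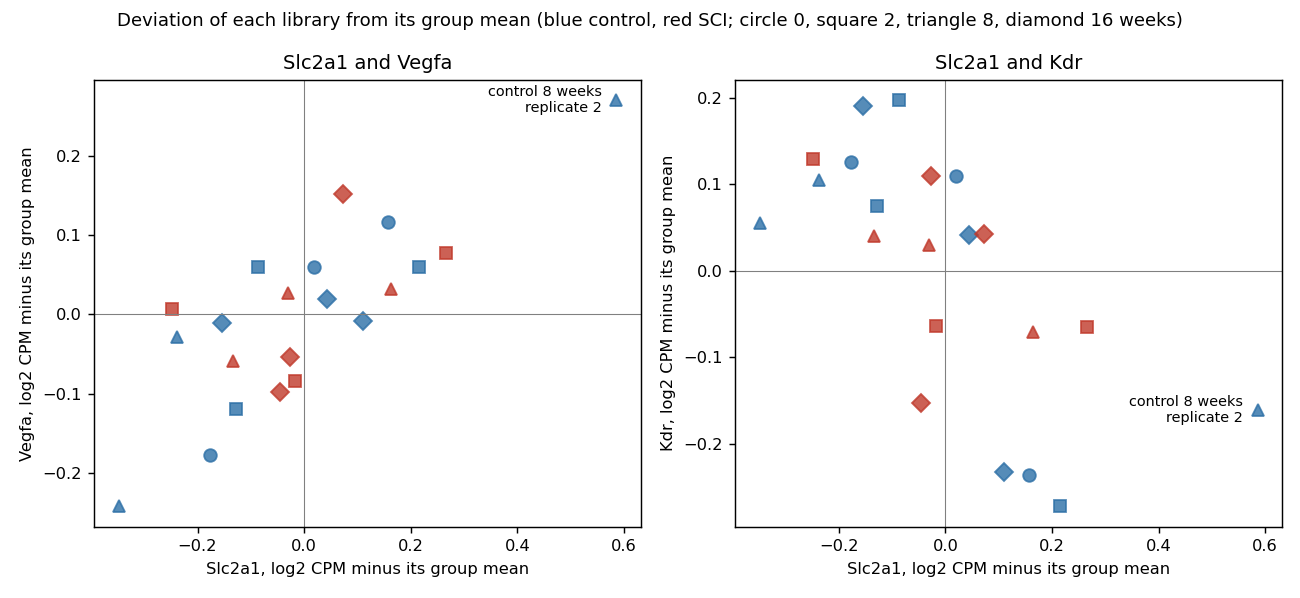
Deviation of each library from its group mean in log2 CPM, Slc2a1 on the horizontal axes against Vegfa (left, r = 0.79) and Kdr (right, r = -0.66), blue for control and red for SCI, with shapes for weeks. Libraries high in Slc2a1 tend to be high in Vegfa and low in Kdr, and control replicate 2 at 8 weeks lies farthest to the right.

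Among the other 15224 tested genes, the one most like Slc2a1 across the 21 libraries by Pearson r of log2 CPM was Vegfa (r = 0.72), a description that uses all libraries without subtracting group means. That place rested on 1 library, since without control replicate 2 at 8 weeks r was 0.62 and Vegfa ranked 813. Slc2a1 ranked 4 for Vegfa with all libraries and 282 without that one, where with all libraries the first place was held by ENSRNOG00000013260 (r = 0.74). The gene most like Kdr was ENSRNOG00000032703 (r = 0.85).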

How the data were processed

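RNA of 21 bladders was sequenced after ribosomal RNA depletion with a stranded kit. The deposited values are raw read counts per Ensembl rat gene, which the authors had not normalized. The submitters' processing notes name Trim Galore 0.6.10, STAR 2.7.10a, SAMtools 1.17, featureCounts 2.0.3 and the build Rnor_6.0. Neither the gene annotation nor the strand setting of the counting was given in the sources used here, so reads of overlapping or antisense genes may be included. Groups came from the sample titles.

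Genes were filtered with filterByExpr, scaled by TMM and fitted with edgeR 4.0.16 (R 4.3.3), 1 mean for each of 7 groups over all libraries, which left 14 residual degrees of freedom. TMM factors ran from 0.903 to 1.09. Each comparison had a two-sided quasi-likelihood F test, with Benjamini-Hochberg adjustment over all 15225 genes, with a threshold of 0.05. Replicates are separately named animals. Libraries of the same group were all further apart than counting noise allows (chi-square per degree of freedom 7.22 to 59.9). DESeq2 1.42.0 was an alternative, with other scalings, filters, sample sets and left-out libraries. Log2 CPM used a prior count of 2. Relations used 100000 permutations within groups. On simulated data for the 16-week comparison (15092 genes), edgeR recovered 29.9% of genes changed 1.5-fold, 71.6% of those changed 2-fold and 95.5% of those changed 4-fold. DESeq2 recovered 37.3%, 74.6% and 93.9% of them. Among the unchanged genes, edgeR called 6 and DESeq2 17.

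The 4 genes, and the lists named below, were chosen with earlier results of these data known. All 4 genes are named, with the gene most like Kdr and the gene most like Vegfa. The RefSeq gene table used for names holds 47357 genes, 0 of them with an Ensembl identifier, so lists of pathway genes and cell type markers, and Kdr relative to endothelial markers, were not analysed here. Promoter sequences of the 4 genes were matched by symbol (4 of 4).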

Additional observations from a re-analysis of the deposited data

How the results depend on the processing

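At 16 weeks the Kdr value was -0.41 with DESeq2, -0.41 without the 0-week controls and -0.42 with the likelihood ratio test of edgeR, a test chosen after seeing the data. Under DESeq2, and without the 0-week controls, the number of the 4 genes called was 1 in place of 0, while the calls among all genes were 1675 and 2086 in place of 855. Leaving out 1 library at a time gave Kdr values of -0.52 to -0.32 and 0 to 1 called genes. The cause was not tested. Scaling by library size alone gave Slc2a1 at 8 weeks a value of 0.081 in place of -0.10, but moved all genes alike, with their median at 0.19 at that week and 0.09 at 16 weeks, so relative to the median its direction did not turn. With 1 library left out, the 2-week value ran from -0.011 to 0.055 for Hif1a and from -0.066 to 0.20 for Slc2a1, and the 8-week value from -0.0064 to 0.10 for Hif1a, from -0.0062 to 0.26 for Vegfa and from -0.27 to 0.26 for Slc2a1. The 16-week value ran from 0.055 to 0.16 for Hif1a, from 0.037 to 0.16 for Vegfa and from 0.21 to 0.35 for Slc2a1. Leaving aside settings chosen after seeing the data, 6 of 168 refits of the 12 SCI values changed sign, the library-size one among them, and 3, all of Kdr at 16 weeks, passed the threshold. The Vegfa and Slc2a1 relation (r 0.60 to 0.84) and the Slc2a1 and Kdr relation (r -0.71 to -0.63) stayed past the threshold with each library left out.

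The deviations of same-numbered SCI and control libraries had correlations of -0.14 to 0.13 over 9 pairs, 3 of them over 0.1. Of 18 libraries, 10 correlated best with their own number among the 3 of that week. These values do not settle whether the numbers pair animals. The labels do not call them pairs, and the reported fit did not use them. With the number as a replicate block, Kdr at 16 weeks was -0.41 with an edgeR adjusted p of 0.0534. The genes called among all were then 1783 in place of 1281 at 8 weeks and 1307 in place of 855 at 16 weeks. The number of all genes called varied with the setting, 0 to 64 for the 2-week comparison, 32 to 3088 for the 8-week and 16 to 2105 for the 16-week one, beside 0, 1281 and 855 as reported. Scaling by library size alone changed the split of the calls, with 2435 of 3088 higher in SCI at 8 weeks and 478 of 770 at 16 weeks, beside 499 of 1281 and 362 of 855 as reported. With 3 animals a group, 29.9% of 1.5-fold changes were recovered in simulated data of the 16-week comparison. The changed genes there were drawn at random from all levels, so that share need not hold for these 4. In the reported 16-week fit the log2 change needed to pass was 0.29 for Hif1a, 0.38 for Vegfa, 0.46 for Kdr and 0.67 for Slc2a1. A value that did not pass thus does not show that a gene was unaffected.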
